A study of Mus musculus with 14 samples.

Results

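The ionotropic glutamate receptor subunits described here are 10 genes, taken by name, among the 21568 gene symbols counted in single cells of the mouse lateral hypothalamus. They are the 4 AMPA receptor subunits Gria1, Gria2, Gria3 and Gria4, the NMDA receptor subunits Grin1, Grin2a, Grin2b and Grin3a, and the kainate receptor subunits Grik1 and Grik2. The cells came from punches of the lateral hypothalamic area. The mice were male, wild-type C57BL/6J animals under a reversed light cycle. In the first group 7 mice ate a high fat diet ad libitum, and in the second group 7 mice ate taste-matched control chow ad libitum. Mouse age and diet length are not stated in the labels. Each mouse gave 1 Drop-seq library, in which cells are captured with barcoded beads and each captured transcript is counted once by a unique molecular identifier (UMI) at its 3′ end.

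Ionotropic glutamate receptors are tetrameric channels that open when glutamate binds, and they carry most fast excitatory transmission in the brain. AMPA receptors assemble from the Gria1 to Gria4 products, and the edited Gria2 product makes the channel nearly impermeable to calcium. NMDA receptors need the obligatory Grin1 subunit together with Grin2 subunits, which set gating kinetics, or with Grin3a, which lowers calcium permeability and magnesium block. Kainate receptors are built from Grik1, Grik2 and related subunits and act at both sides of the synapse. Neurons of the lateral hypothalamus, which regulate feeding and arousal, receive glutamate input through these channels, and glial cells also carry some of them.

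Positions of the members are given on the GRCm38 build with the GENCODE M21 annotation. Gria1 spans chr11:57011387-57330244 on the plus strand and Gria3 spans chrX:41400854-41678601 on the plus strand. The other 8 are on the minus strand: Gria2 at chr3:80681450-80802835, Gria4 at chr9:4417896-4796234, Grin1 at chr2:25291181-25319187, Grin2a at chr16:9567898-9995560, Grin2b at chr6:135713233-136173511, Grin3a at chr4:49661611-49845744, Grik1 at chr16:87895900-88290265 and Grik2 at chr10:49094833-49788766. Grin2a and Grik1 share chromosome 16.

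RefSeq promoter windows (GRCm38.p6) were matched for 4 members, and 3 are shown because their genes stand for the class patterns described below. Gria2 is abundant in oligodendrocyte precursors, astrocytes and both neuron classes, Gria4 is highest in oligodendrocyte precursors, and Grin1 is highest in neurons. Each window is the 250 bases before the gene's start, read 5′ to 3′ on the minus strand. The windows lie at chr3:80802836-80803085 for Gria2, chr9:4796235-4796484 for Gria4 and chr2:25319188-25319437 for Grin1. Capitals mark GGACAG, the right-hand part of the RE1 element bound by the neuronal gene repressor REST, which appears here as its reverse complement.
Gria2: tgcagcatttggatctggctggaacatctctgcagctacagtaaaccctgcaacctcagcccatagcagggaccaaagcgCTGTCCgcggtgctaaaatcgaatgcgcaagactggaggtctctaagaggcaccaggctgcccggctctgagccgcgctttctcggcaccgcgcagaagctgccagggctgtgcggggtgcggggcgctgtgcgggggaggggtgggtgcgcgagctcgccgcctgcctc
Gria4: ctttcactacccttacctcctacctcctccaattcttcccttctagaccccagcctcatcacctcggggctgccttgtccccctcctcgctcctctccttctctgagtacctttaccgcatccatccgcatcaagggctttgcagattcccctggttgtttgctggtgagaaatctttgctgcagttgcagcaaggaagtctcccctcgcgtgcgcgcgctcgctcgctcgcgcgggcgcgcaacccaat
Grin1: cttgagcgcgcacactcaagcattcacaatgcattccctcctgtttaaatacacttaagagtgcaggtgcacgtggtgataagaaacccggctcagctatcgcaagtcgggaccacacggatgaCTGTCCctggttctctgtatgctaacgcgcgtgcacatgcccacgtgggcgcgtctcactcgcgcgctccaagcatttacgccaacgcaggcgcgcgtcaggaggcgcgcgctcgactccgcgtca
GGACAG was found in 1 place in the Gria2 window and in 1 place in the Grin1 window, with both strands searched, and among 32544 promoters of the same length 18.8% hold it. The GC box GGGCGG, held by 33.0% of promoters, and the cyclic AMP element TGACGTCA, held by 1.6%, were not found in these 3 windows. Nor was an exact match to the left-hand RE1 part CAGCACC, held by 5.7%. The Gria2 window reads CTGTCCgcggtgcta, however, where ggtgcta differs from ggtgctg, the reverse complement of CAGCACC, in its last base. A near match to the left-hand part thus lies beside GGACAG there, and whether it is a working site was not tested. The E box CANNTG, held by 66.2% of promoters, was found in 4 places in the Grin1 window and in 1 place in each of the Gria2 and Gria4 windows, with no overlap with GGACAG. The windows were richer in GC than the median promoter, with 64.8% GC in Gria2, 58.8% in Gria4 and 58.8% in Grin1 against 52.4%. They hold 19, 16 and 27 CpG in that order, against a median of 6.

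The tables held 28410 barcodes, of which 15378 passed filters on depth, and 15164 remained after barcodes called as doublets were left out. Library totals ran from 147470 to 5611524 UMIs, and 3 passing barcode sequences occurred in more than 1 library. The receptor genes and their partners were left out of the genes used for clustering, so that the classes were not formed from the members. Classes are named from their marker genes and are therefore marker-defined, oligodendrocyte precursor-like cells (OPCs below) being led by Pdgfra, Vcan and Cspg4 and astrocyte-like cells (astrocytes below) by Agt, Gja1 and Ntsr2. Neuron subclusters were assigned as wholes to a class with Slc17a6, the vesicular glutamate transporter of hypothalamic neurons, or to one with Slc32a1, the vesicular GABA transporter. The 138 hypocretin neurons, 57 neurons led by Pmch and 1174 other neurons were left out of both classes. In the Slc17a6 subcluster led by Plce1, 66.7% of cells held a UMI of Gad1, a GABA synthesis gene. There were 641 OPCs, 913 astrocytes, 1851 Slc17a6 neurons and 2972 Slc32a1 neurons, with median depths of 1009, 676, 4252 and 4040 UMIs. Levels are given in CPM, a gene's UMIs scaled to a fixed total of all UMIs summed over a class in 1 mouse, so they are shares of the RNA captured and not molecules per cell. A mouse entered a class when it had at least 10 of its cells, which left 6 high fat diet and 5 control mice for OPCs, 6 and 6 for astrocytes, and 6 and 7 for each neuron class. High fat diet replicate 7, with 49 passing barcodes, entered none of these 4 classes.

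The classes were named from the marker lists summed here, so high sums in their own class follow from the naming. The 7 OPC markers summed to between 6969 and 12481 CPM in OPCs over all mice, and the 7 astrocyte markers to between 21064 and 25993 CPM in astrocytes. The 6 pan-neuronal markers, which summed to between 8758 and 11824 CPM in the neuron classes, still summed to between 910.05 and 1467 CPM in OPCs and to between 307 and 1479 CPM in astrocytes. Their part in the glial values was not tested except where values from glia without any neuron marker UMI are given. In 3 libraries, a subcluster of Slc32a1 neurons led by Syt2, Kcna1 and Col25a1 held between 30.5% and 42.4% of the Slc32a1 neurons. These libraries were high fat diet replicate 1 and control replicates 1 and 2. In the other mice that subcluster held between 2.52% and 10.7%. Values without these 3 mice are also given for some members in the class contrasts, Slc32a1 levels and shares, and for that subcluster.

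Gria2 was the most abundant member in all 4 classes. Its level was 1435 ± 285 CPM in OPCs (SD, n = 11 mice; lowest 953, median 1509, highest 1753), 1260 ± 276 CPM in astrocytes (n = 12; 545, 1269 and 1618.5), 974 ± 169 CPM in Slc17a6 neurons (n = 13; 721, 980.1 and 1259) and 1054 ± 218 CPM in Slc32a1 neurons (n = 13; 752, 1010.2 and 1589). Neighbouring classes in this order overlapped over mice. Other cells had far less: 43.7 ± 18.5 CPM in oligodendrocytes (n = 14), 76.3 ± 36.5 CPM in microglia (n = 12) and 65.03 ± 81.9 CPM in endothelial cells (n = 12). Free RNA can give such UMIs in droplets, and its part in these values was not tested.

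Gria1, whose product is trafficked to synapses in an activity-dependent way, was highest in astrocytes and lowest in OPCs. It stood at 50.8 ± 41.0 CPM in OPCs, with a lowest mouse at 0, a median of 47.9 and a highest mouse at 125.2. It stood at 501 ± 132 CPM in astrocytes (lowest 294, median 495, highest 819), at 216 ± 60.3 CPM in Slc17a6 neurons (119, 218 and 331) and at 327 ± 98.8 CPM in Slc32a1 neurons (193, 302 and 510). OPCs reached only the low end of the Slc17a6 range, and their values overlapped with those of endothelial cells, at 25.6 ± 33.6 CPM.

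Gria3 and Gria4 showed the reverse order in glia. Gria3 reached 593 ± 179 CPM in OPCs (lowest 284, median 614, highest 809.55) and 7.25 ± 12.2 CPM in astrocytes, where the median mouse was at 0. It reached 157 ± 43.0 CPM in Slc17a6 neurons (77.2, 177 and 201.9) and 217 ± 64.5 CPM in Slc32a1 neurons (100.8, 217 and 309.7). Gria4 reached 389 ± 181 CPM in OPCs (162, 355 and 808) and 19.1 ± 34.8 CPM in astrocytes (0, 3.88 and 120). In neurons it reached 157 ± 64.6 CPM with Slc17a6 and 140 ± 47.2 CPM with Slc32a1, which did not differ beyond their spread. Without the 3 mice that stand apart, the Slc32a1 means were 295 CPM for Gria1, 1004 CPM for Gria2, 204 CPM for Gria3 and 120.5 CPM for Gria4. Gria4 was also the leading AMPA subunit in oligodendrocytes, at 82.7 ± 26.6 CPM.

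The obligatory NMDA subunit Grin1 was a neuronal gene in these cells. It stood at 21.1 ± 21.8 CPM in OPCs, 3.82 ± 7.33 CPM in astrocytes, 124 ± 41.5 CPM in Slc17a6 neurons and 128 ± 23.5 CPM in Slc32a1 neurons. Grin2b, the Grin2 subunit that dominates in the young brain, followed it, at 8.45 ± 18.8 CPM in OPCs, 25.3 ± 21.9 CPM in astrocytes, 113 ± 35.9 CPM in Slc17a6 neurons and 119 ± 31.8 CPM in Slc32a1 neurons. Both rested on few molecules in OPCs, 18 UMIs of Grin1 and 6 of Grin2b over 11 mice.

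Grin3a broke that pattern, being highest in OPCs. It stood at 296 ± 59.7 CPM in OPCs (lowest 226, median 291, highest 418), 33.0 ± 36.8 CPM in astrocytes, 57.8 ± 13.5 CPM in Slc17a6 neurons (25.7, 59.3 and 78.1) and 71.2 ± 14.9 CPM in Slc32a1 neurons (45.8, 70.2 and 103). The OPC values did not overlap with those of any other of these classes. Grin2a, the Grin2 subunit that gains ground in the mature forebrain, was close to absent from the counts. The gene was listed in 11 of 14 tables, with 5 UMIs over all Slc17a6 neurons, or 0.544 CPM of their summed UMIs, and 18 over all Slc32a1 neurons, or 1.26 CPM. It had 0 of 722951 UMIs in OPCs, which allows a level of up to 4.15 CPM, and 0 of 700642 UMIs in astrocytes, which allows up to 4.28 CPM. These limits cover counting error only.

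The kainate subunits were scarce in every class. Grik1 stood at 59.2 ± 29.6 CPM in OPCs (0, 49.0 and 103), 26.1 ± 11.5 CPM in Slc17a6 neurons (12.9, 23.7 and 54.6) and 46.5 ± 13.1 CPM in Slc32a1 neurons (26.4, 44.5 and 74.6). Astrocytes had 0 Grik1 UMIs, which allows up to 4.28 CPM. Grik2 stood at 46.7 ± 36.0 CPM in OPCs, 22.8 ± 19.0 CPM in astrocytes, 64.8 ± 19.5 CPM in Slc17a6 neurons and 56.9 ± 12.2 CPM in Slc32a1 neurons, and the ranges of all 4 classes overlapped. Without the 3 mice that stand apart, the Slc32a1 means were 136 CPM for Grin1, 111 CPM for Grin2b, 70.2 CPM for Grin3a, 44.2 CPM for Grik1 and 53.6 CPM for Grik2.

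**Figure D1:**
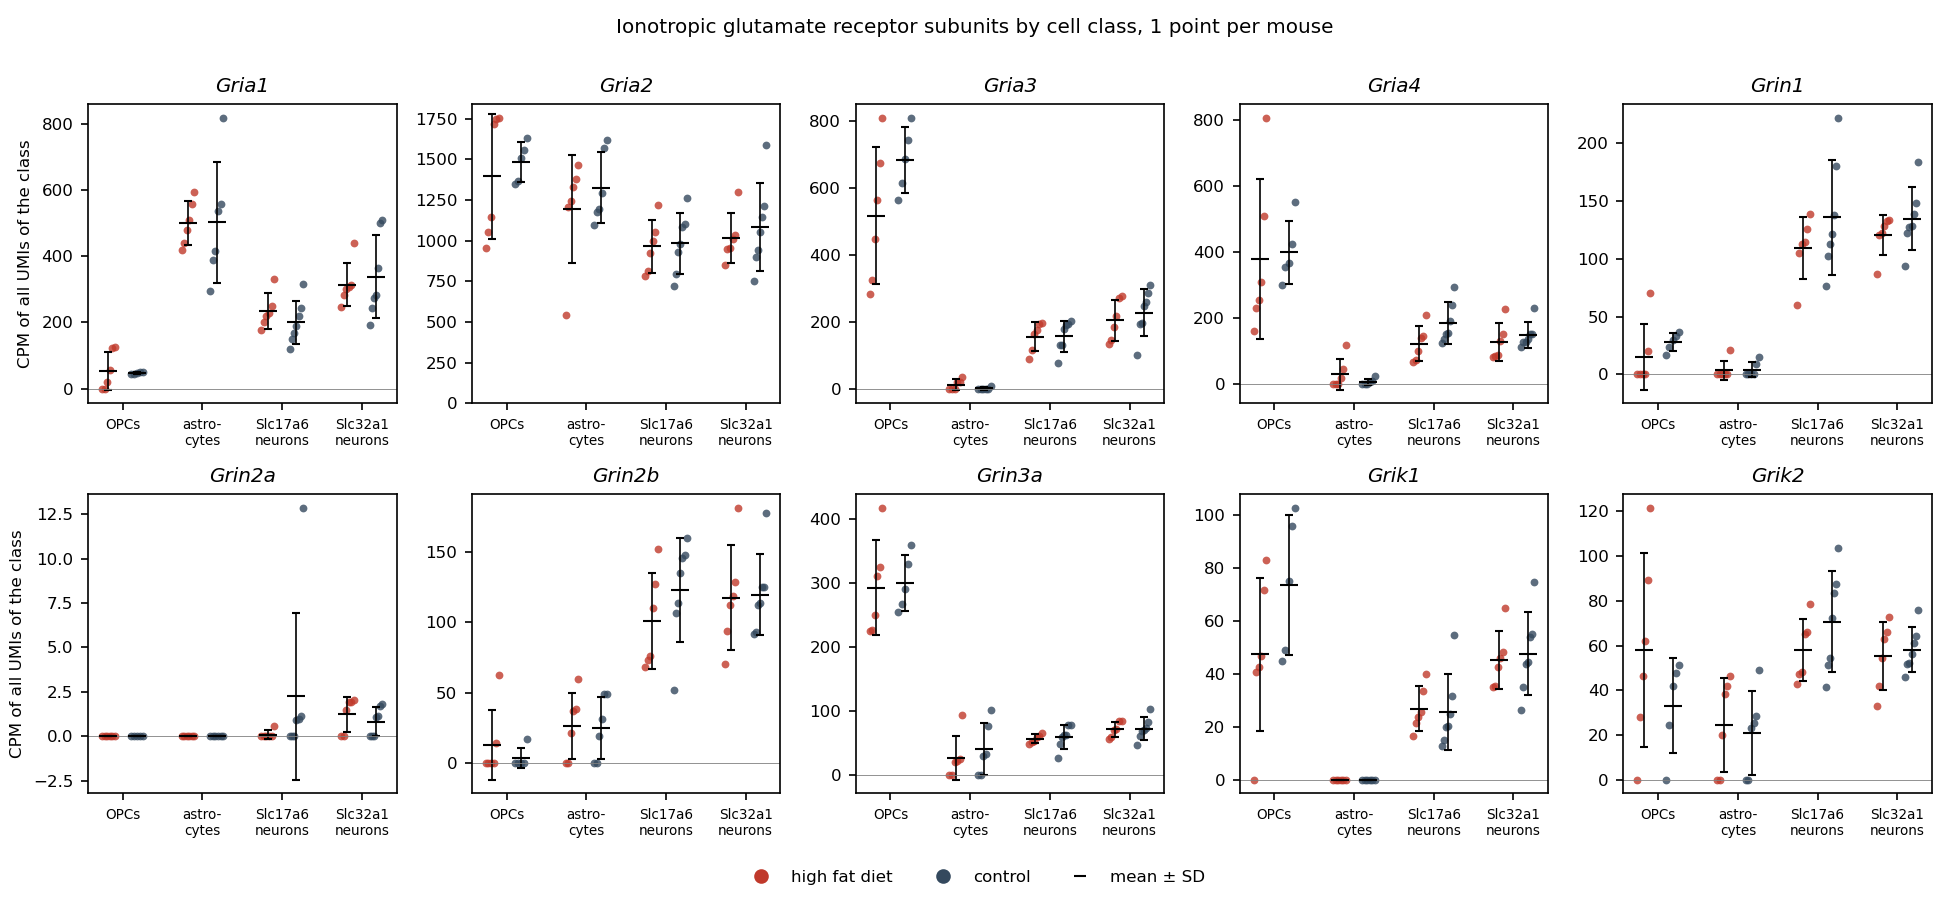
Levels of the 10 subunits in CPM of all UMIs of a class (y axis, linear and different for each gene) in OPCs, astrocytes, Slc17a6 neurons and Slc32a1 neurons; each point is 1 mouse, red for high fat diet and dark blue for control, and bars show mean ± SD. Gria3, Gria4 and Grin3a are highest in OPCs, Gria1 in astrocytes and Grin1 and Grin2b in neurons.

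Subunit shares within a receptor family do not depend on the total RNA of a class. Since UMIs count 3′ ends, transcript length does not enter them, but the capture of each 3′ end does, so they describe UMIs and not channel make-up. Of the AMPA UMIs in OPCs, Gria2 took 58.7 ± 7.70%, Gria3 23.7 ± 4.88%, Gria4 15.4 ± 5.09% and Gria1 2.19 ± 2.2% (n = 11 mice). In astrocytes Gria2 took 69.8 ± 8.79% and Gria1 28.8 ± 9.32% (n = 12), so that 2 subunits made up nearly all of the family. The neuron classes spread the family over all 4 subunits, with Gria2 at 64.8 ± 2.42% in Slc17a6 neurons and 60.9 ± 3.12% in Slc32a1 neurons (n = 13 each), and the Gria2 share was higher in Slc17a6 neurons in 12 of 13 mice. The Gria1 share was 14.5 ± 3.36% in Slc17a6 neurons and 18.6 ± 2.4% in Slc32a1 neurons, and lower in Slc17a6 neurons in all 13 mice. Without the 3 mice that stand apart, the Gria2 share was 65.4% in Slc17a6 neurons and 61.9% in Slc32a1 neurons, and the Gria1 share was 14.2% and 18.1% in that order.

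The NMDA shares are among the UMIs of Grin1, Grin2a, Grin2b and Grin3a alone, with Grin2c, Grin2d and Grin3b left out of the total. Grin3a took 89.3 ± 9.24% of these UMIs of OPCs in the 9 mice with at least 10 of them. Grin1 took 7.87 ± 6.87% and Grin2b 2.84 ± 5.30%. In Slc17a6 neurons Grin1 took 41.9 ± 11.7%, Grin2b 38.0 ± 10.5% and Grin3a 19.7 ± 4.52%, and in Slc32a1 neurons they took 40.6 ± 6.64%, 36.9 ± 6.20% and 22.2 ± 2.29%. The OPC share of Grin3a, whose lowest mouse was at 72.7%, lay above every neuronal value, the highest of which was 27.1%. Within the kainate pair, Grik1 took 30.9 ± 5.76% in Slc17a6 neurons and 42.6% in Slc32a1 neurons of the same 11 mice, and was lower in Slc17a6 neurons in 11 of 11. Without the 3 mice that stand apart, the Slc32a1 shares were 43.1% for Grin1, 34.6% for Grin2b, 21.9% for Grin3a and 45.0% for Grik1. The Slc32a1 share of Grik1 over all 13 mice was 44.8%. In Slc17a6 neurons without the 3 mice the Grik1 share was 30.1% (n = 8).

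**Figure D2:**
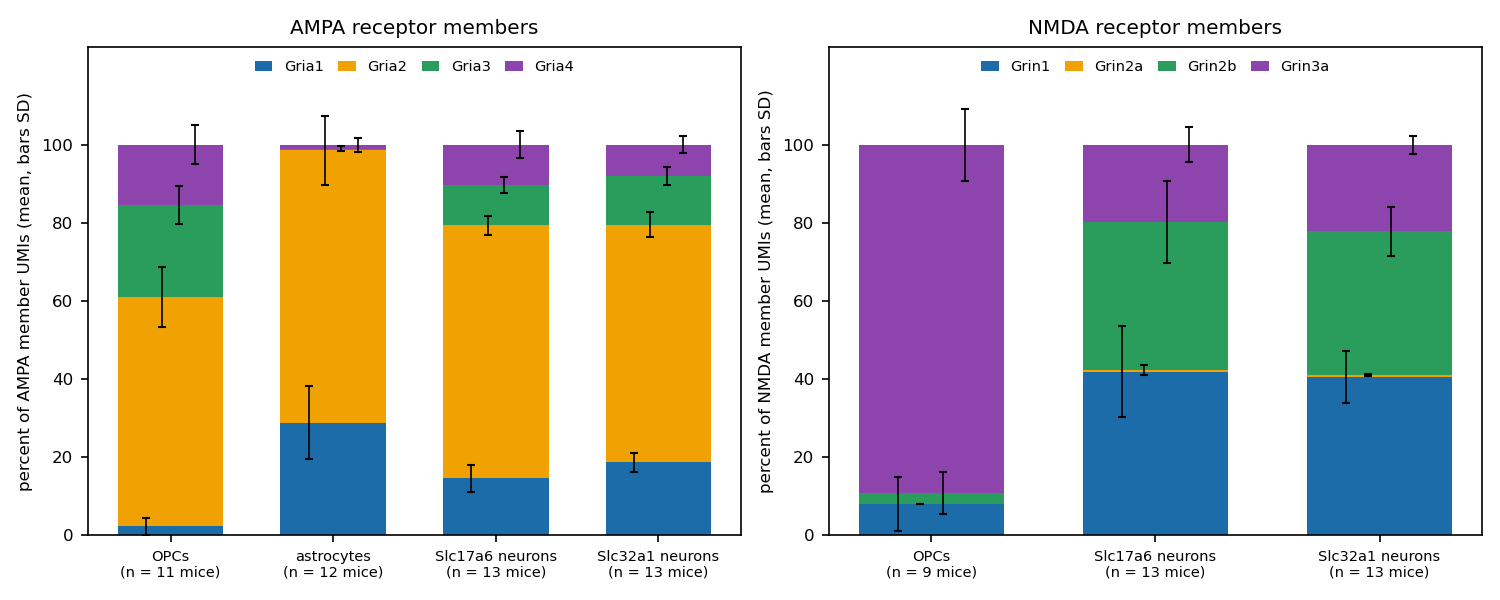
Mean percent of the AMPA member UMIs (left) and of the NMDA member UMIs (right) taken by each subunit in each class, with bars for the SD over mice drawn at the top of each segment. Grin3a fills 89.3% of the OPC column, against 19.7% in Slc17a6 and 22.2% in Slc32a1 neurons, and Gria3 and Gria4 are nearly missing from the astrocyte column; astrocytes are not drawn at right because 1 mouse had enough NMDA UMIs.

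The classes were then compared gene by gene with edgeR's quasi-likelihood test on summed UMIs, with the mouse as a block, over 3922 genes that passed the filter on low counts, and an adjusted p (Benjamini-Hochberg over those genes) under 0.05 was the threshold. Of the 10 members, 7 passed that filter, while Grin2a, Grik1 and Grik2 did not. A member can pass it through a single class in which it is high, so the numbers of members past the threshold are given for completeness.

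OPCs carried more Gria2, Gria3, Gria4 and Grin3a than neurons, and less Gria1, Grin1 and Grin2b. Against the mean of the neuron classes, Grin3a was higher by 2.21 on the log2 scale (SE 0.145, adjusted p 1.19e-32), Gria3 by 1.78 (SE 0.0927, adjusted p 2.835e-43) and Gria4 by 1.54 (SE 0.117, adjusted p 5.983e-27), each in 11 of 11 mice against either neuron class. Gria1 fell by 2.50 (SE 0.241, adjusted p 1.599e-14), Grin1 fell by 2.06 (SE 0.271, adjusted p 5.983e-12) and Grin2b fell by 3.66 (SE 0.374, adjusted p 1.277e-17) on the log2 scale, also in 11 of 11 mice. All 7 tested members passed, 4 higher and 3 lower, in a comparison in which 77.4% of all genes passed (37.5% higher and 39.9% lower), and that count is near the background. Without high fat diet replicate 1 and control replicates 1 and 2, Grin3a was at 2.15, Gria3 at 1.69, Gria4 at 1.46 and Grin2b at -5.48. Without the filter on low counts, Gria1 was at -3.16, Grin1 at -2.74 and Grin2b at -4.31.

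Gria2 in OPCs was the least settled of these. It was higher than in neurons by 0.63 on the log2 scale (SE 0.0766, adjusted p 3.369e-11), in 10 of 11 mice against Slc17a6 neurons and 11 of 11 against Slc32a1 neurons. In the 192 OPCs without a UMI of any neuron marker the difference was 0.21 (adjusted p 0.209), and without a filter on low counts it was -0.07 (adjusted p 0.468). The higher levels of Gria3, Gria4 and Grin3a were 1.18, 1.09 and 1.55 in the OPCs without neuron marker UMIs and 1.09, 0.85 and 1.52 without the filter. Grik1, tested only without the filter, was at 0.34 (edgeR adjusted p 0.31), and Grik2 was lower by that test (log2 fold change -1.06, adjusted p 1.036e-04). Members given both ways had lower log2 fold changes without the filter, so the kainate values are not on the scale of the filtered ones. By CPM, Grik1 was higher in OPCs in 10 of 11 mice against Slc17a6 neurons and in 8 of 11 against Slc32a1 neurons. Grik2 was higher in OPCs in 3 and 2 of 11 mice in that order, with overlapping ranges.

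Astrocytes carried more Gria1 and Gria2 than neurons, and less Gria3, Gria4, Grin1 and Grin2b. Gria1 was higher by 1.32 on the log2 scale (SE 0.122, adjusted p 2.607e-15), in 12 of 12 mice against Slc17a6 neurons and in 10 of 12 against Slc32a1 neurons, and by 0.60 without the filter on low counts. Gria2 was higher by 0.72 (SE 0.0808, adjusted p 1.328e-12), in 11 and 10 of 12 mice, but was at -0.0047 without the filter on low counts and at 0.37 in the 618 astrocytes without neuron marker UMIs. Gria3 fell by 4.25, Gria4 fell by 2.60, Grin1 fell by 3.56 and Grin2b fell by 1.68, with SEs between 0.287 and 0.399 and adjusted p between 1.286e-23 and 5.187e-08, each lower in 12 of 12 mice. Without the filter those 4 were at -4.95, -3.31, -4.26 and -2.39. Without the 3 mice that stand apart, Gria1 was at 1.36, Gria2 at 0.77, Gria3 at -4.16, Gria4 at -3.08, Grin1 at -3.33 and Grin2b at -1.77. Grin3a had a log2 fold change of -0.36 (adjusted p 0.241), which became -0.96 (adjusted p 0.0114) without control replicate 4. Of the tested members 6 of 7 passed, where 80.5% of all genes did (35% higher and 45.5% lower), so the count is again near the background.

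The 4 lower members of astrocytes depended in size on how doublets were treated. With the 214 called doublets kept and the cells clustered again, the log2 fold changes were -0.89 for Gria3, -0.69 for Gria4, -1.53 for Grin1 and -0.55 for Grin2b. In that clustering the astrocyte class included a cluster of 150 cells that also met 7 oligodendrocyte and 6 neuron markers. In astrocytes without neuron marker UMIs the values were -4.71, -3.58, -4.62 and -2.48.

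Set against each other, OPCs and astrocytes shared Gria2 and differed in the rest of the AMPA family. OPCs were higher by 6.04 on the log2 scale for Gria3 (SE 0.298, adjusted p 2.287e-45), by 4.14 for Gria4 (SE 0.293, adjusted p 4.211e-29) and by 2.58 for Grin3a (SE 0.264, adjusted p 4.477e-17), in 11 of 11 mice and with no overlap. Gria1 fell by 3.82 in OPCs relative to astrocytes (SE 0.250, adjusted p 2.921e-21), also with no overlap. Neither Gria2, at -0.10 (SE 0.100, adjusted p 0.446), nor Grin1, at 1.501 (SE 0.675, adjusted p 0.057), passed. Grin2b was lower in OPCs by the test (log2 fold change -1.98, SE 0.645, adjusted p 0.00659), a difference that rests on 6 UMIs in OPCs and 19 in astrocytes and had an adjusted p of 0.274 in cells without neuron marker UMIs. Here 5 of 7 tested members passed, against 47.4% of all genes (26% higher and 21.4% lower). With doublets kept, Gria3 was at 2.64 and Gria4 at 2.15, and without the 3 mice that stand apart Gria1 was at -3.63, Gria3 at 5.85, Gria4 at 4.54, Grin2b at -3.71 and Grin3a at 2.49.

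Between the neuron classes the differences were small, and Gria1 and Gria3 passed. Both were lower in Slc17a6 than in Slc32a1 neurons, Gria1 with a log2 fold change of -0.52 (SE 0.0694, adjusted p 1.222e-08) and Gria3 with one of -0.48 (SE 0.0579, adjusted p 1.566e-12), each in 13 of 13 mice, 7 in pool 1 and 6 in pool 2. Gria2 (-0.14, adjusted p 0.0954), Gria4 (-0.02), Grin1 (-0.19, adjusted p 0.0572), Grin2b (-0.04) and Grin3a (-0.23, adjusted p 0.114) did not pass. That is 2 of 7 tested members, both lower, where 10.6% of all genes passed in either direction, 4.05% higher and 6.53% lower. Without the 3 mice that stand apart Gria1 was at -0.46 and Gria3 at -0.45, and with neurons assigned by their own transporter UMIs they were at -0.33 and -0.58.

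A fit of the neuron classes alone, added after the data were seen because glia set the filter above, tested 8395 genes and called 9.47% of them. Gria1 (-0.50) and Gria3 (-0.47) passed again, and so did Grik1, at -0.64 (SE 0.115, adjusted p 1.489e-05), and Gria2, at -0.12 (adjusted p 0.00692). Grik1 was lower in Slc17a6 neurons in 12 of 13 mice. Grik2 had a log2 fold change of 0.05 (adjusted p 0.877). Neither fit called a member higher in Slc17a6 neurons.

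**Figure D3:**
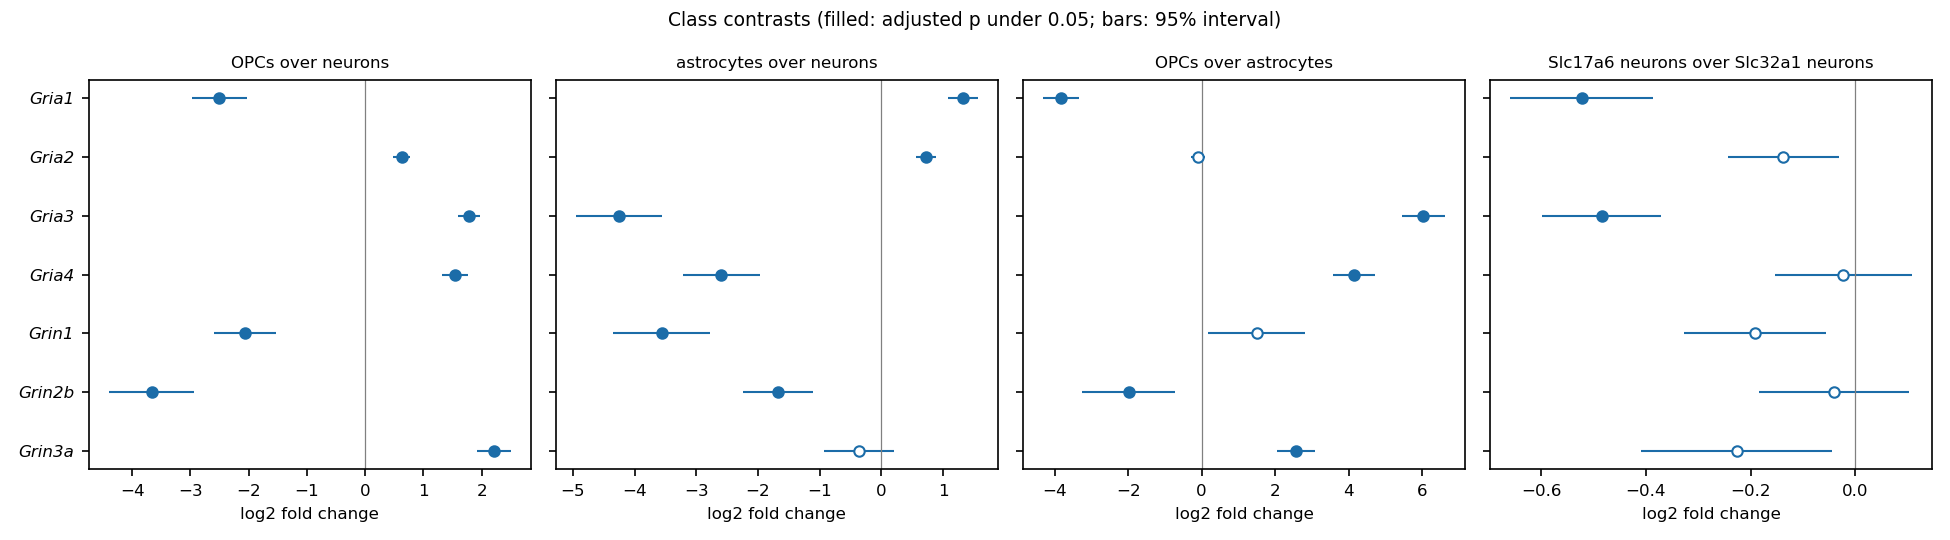
Log2 fold changes of the 7 tested subunits in the class contrasts, tested class over its counterpart, with bars for the 95% interval from the SE; filled points have an adjusted p under 0.05 and the x axes differ. OPCs and astrocytes depart from neurons in opposite directions for Gria1, Gria3 and Gria4, while the neuron classes differ by at most 0.52.

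Partners of the receptors also differed between classes. Of 12 AMPA auxiliary genes 3 were tested. Cacng4, a transmembrane AMPA receptor regulatory protein, stood at 2202 ± 291 CPM in OPCs, 86.1 ± 26.8 CPM in Slc17a6 neurons and 63.6 ± 16.4 CPM in Slc32a1 neurons, and was higher in OPCs than in neurons by 4.87 on the log2 scale (adjusted p 2.333e-123). Cacng2, the founding member of that group, showed the opposite pattern, at 4.29 ± 9.55 CPM in OPCs and 1.37 ± 4.73 CPM in astrocytes, against 93.9 ± 23.2 and 97.1 ± 25.2 CPM in Slc17a6 and Slc32a1 neurons. Shisa9, another AMPA receptor modulator, was higher in astrocytes than in neurons by 2.36 (adjusted p 3.981e-28). Between the neuron classes, Cacng4 was higher in Slc17a6 neurons by 0.42 (adjusted p 1.762e-05).

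Of the 14 scaffold and trafficking genes 4 were tested. Camk2a and Camk2b, kinases that phosphorylate AMPA receptors at synapses, and Nsf, which acts in receptor recycling, were lower in OPCs than in neurons, at -4.50, -2.30 and -2.94, and lower in astrocytes than in neurons, at -2.45, -4.12 and -3.34 on the log2 scale. Camk2a was also lower in Slc17a6 than in Slc32a1 neurons, at -0.65 (adjusted p 2.797e-09), a difference that had an adjusted p of 0.0709 with DESeq2. Pick1, which binds the Gria2 and Gria3 tails, was higher in astrocytes than in neurons by 0.61, but at -0.11 without the filter on low counts. Both tested RNA editing genes of 3 were lower in OPCs than in neurons, Adar at -2.10 and Adarb1, the enzyme that edits Gria2 RNA, at -1.71. They were lower in astrocytes too, Adar at -0.86 and Adarb1 at -2.62.

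Among metabotropic receptors, Grm5 was higher in OPCs than in neurons by 0.58, but at -0.10 without the filter, and was higher in OPCs than in astrocytes by 2.69 (adjusted p 6.452e-16). None of the 8 other ionotropic subunits and neither of the 2 kainate auxiliary genes passed the filter on low counts in these contrasts.

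The neuron classes hide variation between neuron types. Neurons fell into 23 subclusters, named here by their leading genes. The subcluster of hypocretin neurons, which promote arousal and feeding, was led by Hcrt and Pdyn. The values below are means over mice with at least 10 cells of the subcluster, ranked among subclusters found in more than 1 mouse and given as a description, since each comparison between subclusters is a comparison of cells grouped by their expression.

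The Slc32a1 subcluster led by Fam81a, Icam5 and Nrgn had the highest Gria1 and Gria2, at 477 ± 99.0 and 1708 ± 213 CPM (n = 10 mice). The Slc32a1 subcluster led by Syt2, Kcna1 and Col25a1 came next for both, at 453 ± 138 and 1396 ± 148 CPM (n = 8), within the spread of the first for Gria1 and below it for Gria2. Although named for Slc32a1, it was mixed over mice, with 603 ± 606 CPM of Slc17a6 and a range from 78.7 to 1562 CPM, so its place among Slc32a1 subclusters is uncertain. Its Grin2b was the highest, at 259 ± 136 CPM over mice and 180.3 CPM over all cells. Its Gria4, one of its own 10 leading genes, was at 265 ± 97.9 CPM, with the Pvalb subcluster, at 207 ± 130 CPM, within that spread. Its Gria3 (412 ± 145 CPM) was the highest as a mean over mice but not over all cells, where the Tac2 subcluster described below exceeded it. Its Grin1 (191 ± 144 CPM) was also the highest as a mean, with mice from 88.3 to 498 CPM. Over all cells its Grin1 was at 129 CPM, below the subclusters led by Tac2 (178 CPM), Samd3 (148 CPM), Fam81a (147 CPM) and Tcf4 (143 CPM). The Syt2 subcluster is the one enriched in the 3 mice that stand apart. Without them its means over 5 mice were 448 CPM for Gria1, 1363 for Gria2, 445 for Gria3, 266 for Gria4, 245 for Grin1 and 319 for Grin2b. Its transporter means over those 5 mice were 873 ± 629 CPM for Slc17a6 and 1249 ± 502 CPM for Slc32a1. At the other end, hypocretin neurons had the lowest mean Gria2, 409 ± 98.6 CPM (n = 6), and the next subcluster, led by C1ql2, was at 666 ± 222 CPM (n = 3). Their ranges overlapped, with the lowest C1ql2 mouse at 419 CPM and the highest hypocretin mouse at 561 CPM. Hypocretin neurons kept 257 ± 55.8 CPM of Gria1, a level in the middle of the order, and were low for Grin1 (45.1 ± 16.8 CPM) and Grik2 (13.3 ± 7.98 CPM). For Grin1 the Plce1 subcluster, at 48.5 ± 27.9 CPM, was within that spread, as was the C1ql2 subcluster for Grik2, at 24.7 ± 19.7 CPM. Over all cells, Grik2 was at 17.8 CPM in hypocretin neurons, 17.03 CPM in the C1ql2 subcluster and 12.3 CPM in neurons with Pmch.

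Gria3 varied widely between subclusters. It was at 376 ± 96.6 CPM in the Slc32a1 subcluster led by Tac2, Lamp5 and Grp (n = 5) and at 22.9 ± 15.5 CPM in the Slc17a6 subcluster led by Nppc and Nrn1 (n = 4), with hypocretin neurons at 42.5 ± 31.9 CPM and the C1ql2 subcluster at 45.0 ± 5.70 CPM. The Nppc subcluster still had 957 ± 128 CPM of Gria2 and 159 ± 111 CPM of Gria4, so the low level was not shared by the family. The Tac2 subcluster also had the highest Grin3a, 143 ± 28.6 CPM, and the highest Grik1, 102 ± 33.8 CPM. Grik1 and Grik2 parted in the Slc17a6 subcluster led by Tcf7l2, with 7.62 ± 11.0 CPM of Grik1, the lowest of all, and 105 ± 36.8 CPM of Grik2 (n = 11). Grik2 reached 137 ± 19.3 CPM in the Slc32a1 subcluster led by Pvalb (n = 3). The lower Gria1 and Gria3 of the Slc17a6 class did not hold for every pair of subclusters, although the Tac2 and Nppc subclusters kept that order. Gria3 was at 111 ± 51.2 CPM in the Slc32a1 subcluster led by Gal (n = 11) and at 195 ± 62.6 CPM in the Slc17a6 subcluster led by Trh (n = 10). Gria1 was at 259 ± 78.4 and 305 ± 79.0 CPM in that order. The ranges overlapped for both genes.

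**Figure D4:**
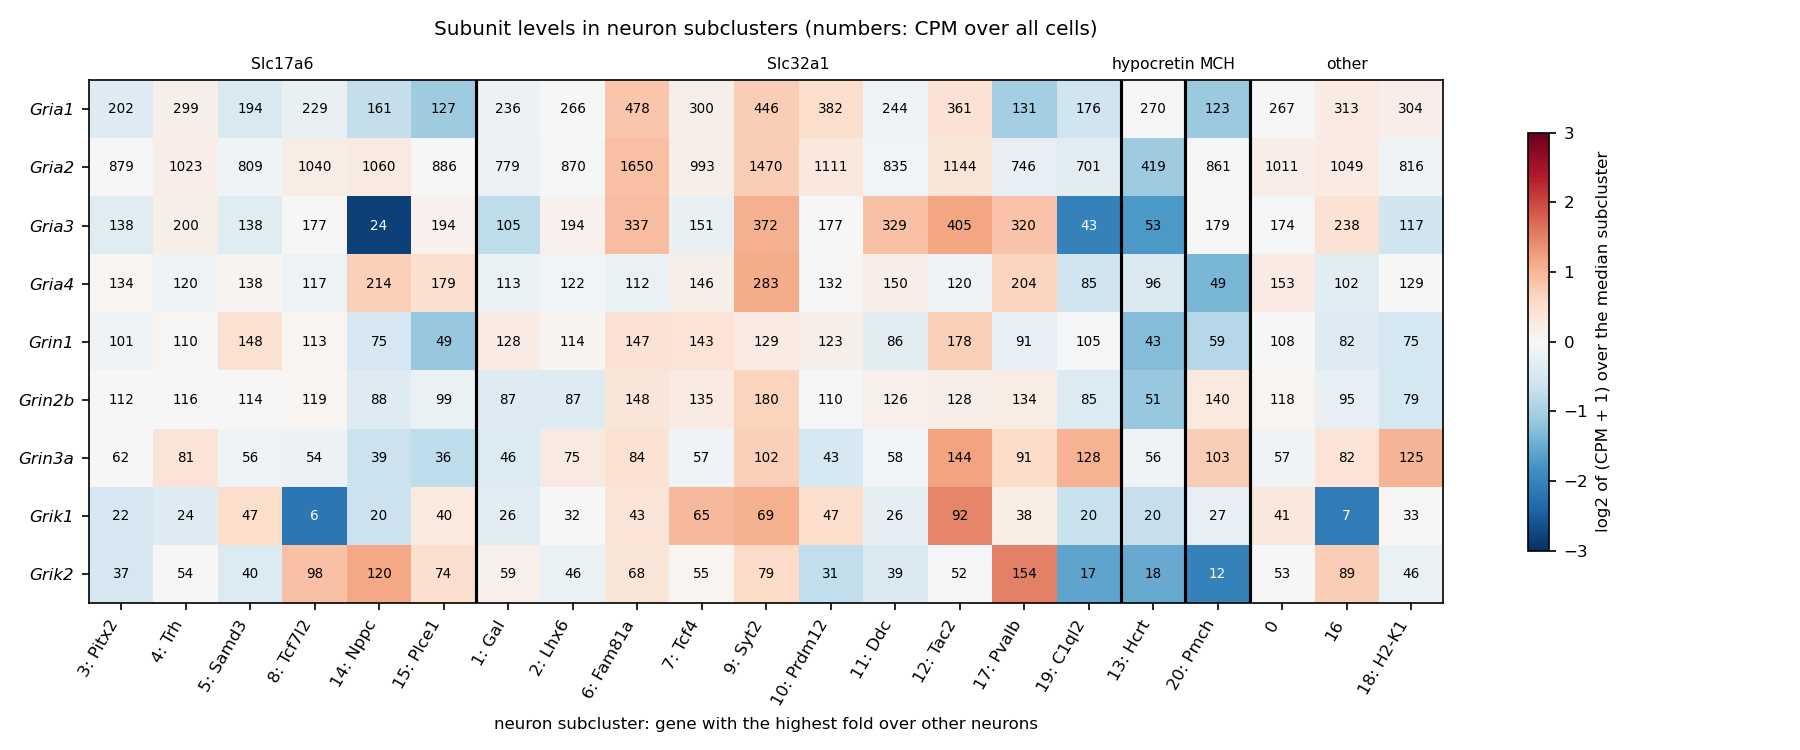
Levels of 9 subunits in the neuron subclusters with at least 50 cells; each number is the CPM over all cells of the subcluster and the colour is the log2 of CPM + 1 relative to the median subcluster. Columns are grouped by class and named by their number and, except for columns 0 and 16, their first leading gene; Gria3 is low in the Nppc, C1ql2 and Hcrt columns, Grik1 in the Tcf7l2 column, and columns 0 and 16 carry oligodendrocyte genes and are left out of the order in the text.

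Genes with a pattern most like each member over the 21 subclusters of at least 50 cells were sought among 8848 genes, by Pearson's r of log2(CPM + 1). These values are descriptions over subclusters that share libraries but differ in depth, with median UMIs from 841 in subcluster 0 to 5272 in the Trh subcluster. Subclusters 0 and 16, which carry oligodendrocyte genes, are among them. The part of depth and of such RNA in these r values was not tested. Gria1 was most like Nr3c1 (r = 0.817), the glucocorticoid receptor gene, then Fndc9 and Cacna1e, and Gria2 was most like Ppp3cb (0.846), a calcineurin catalytic subunit, then Adam22 and Wdr3. Gria3 was most like Scn2a1 (0.854), a sodium channel, then Mmp17 and Rxrg, and Gria4 was most like Kcnh2 (0.877), a potassium channel, then Zfp445 and Spock2. Grin2b was most like Pgrmc1 (0.849), then Kidins220 and Scn2a1. The weaker likenesses were those of Grin3a with Coro2a (0.714), Taf15 and Hexa and of Grik1 with Tubgcp4 (0.702), 6030458C11Rik and Surf6, while Grik2 was most like Gpatch8 (0.823), Zfp60 and Whsc1.

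The study compared the diets, and no member passed the test for a diet effect in any class. In each class edgeR's quasi-likelihood test with sequencing pool as a covariate was applied to the sums per mouse. It tested 9 members in Slc17a6 neurons, 9 in Slc32a1 neurons, 4 in OPCs and 2 in astrocytes, and 0 passed. Among all genes it called 0 of 8502 (0%), 2 of 9439 (0.0212%), 0 of 1307 (0%) and 0 of 674 (0%), so few calls of any kind were made. At an unadjusted p under 0.05 there were 125, 147, 48 and 24 genes in that order, and no member was among them; DESeq2 called 0, 2, 0 and 0 genes.

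Gria2 levels by diet lay close together. They were 965 ± 163 CPM in Slc17a6 neurons of high fat diet mice (lowest 780.0, median 961, highest 1221) and 983 ± 186 CPM in those of control mice (721, 980.1 and 1259), a log2 fold change of 0.02 (SE 0.123). In Slc32a1 neurons Gria2 was at 1017 ± 151 CPM in high fat diet mice (849.6, 984 and 1296) and 1086 ± 271 CPM in control mice (752, 1054 and 1589), a log2 fold change of -0.04 (SE 0.123), or -0.08 without the 3 mice that stand apart. The diets overlapped over most of their range in both classes. Gria1 was at 234 ± 53.8 CPM in Slc17a6 neurons of high fat diet mice (176, 223 and 331) and 200.4 ± 65.3 CPM in those of control mice (119, 190.3 and 315), a log2 fold change of 0.18 (SE 0.179).

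Gria4 in Slc17a6 neurons came nearest to the threshold among the neuronal values. It was at 123 ± 52.9 CPM in high fat diet mice (lowest 69.0, median 121, highest 209; n = 6) and at 186 ± 62.4 CPM in control mice (125.2, 155 and 296; n = 7), with a log2 fold change of -0.49 (SE 0.254, adjusted p 0.9999 by edgeR). The ranges overlapped. In Slc32a1 neurons it was at 129 ± 56.8 CPM in high fat diet mice and 150 ± 39.1 CPM in control mice, with a log2 fold change of -0.25 (SE 0.231). The log2 fold change in Slc17a6 neurons was -0.66 in pool 1 and -0.29 in pool 2, and -0.57 without the 3 mice that stand apart, where that in Slc32a1 neurons was -0.35.

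The other neuronal members had log2 fold changes between -0.29 and 0.18 in Slc17a6 neurons and between -0.16 and 0.11 in Slc32a1 neurons. Within pools several changed sign in Slc17a6 neurons: Gria3 was at -0.28 in pool 1 and 0.35 in pool 2, Grik2 at -0.66 and 0.31, Grik1 at -0.31 and 0.32 and Grin2b at -0.55 and 0.02. In Slc32a1 neurons Gria1 was at -0.30 in pool 1 and 0.27 in pool 2, and Gria3 at -0.43 and 0.21. Pool 1 held 7 of the 13 mice and pool 2 the other 6. The median log2 fold change of the tested members was -0.16 in Slc17a6 neurons and -0.04 in Slc32a1 neurons, against 0.0069 and 0.0031 over all genes tested.

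In OPCs Gria3 was at 517 ± 204 CPM in high fat diet mice (lowest 284, median 506, highest 808; n = 6) and at 683 ± 97.9 CPM in control mice, whose 5 values were 742, 809.5, 614, 564 and 686 CPM. The diet effect was -0.39 on the log2 scale (SE 0.221, adjusted p 0.985 by edgeR). It was -0.41 in pool 1 and -0.38 in pool 2. The highest mouse on high fat diet reached the top of the control range, and the groups overlapped. Summed neuron markers in OPCs were between 1103 and 1467 CPM in high fat diet mice and between 910.05 and 1094 CPM in control mice, which did not overlap, and their part in the Gria3 values was not tested. Gria2 in OPCs was at 1396 ± 383 CPM in high fat diet mice and 1483 ± 122 CPM in control mice (log2 fold change -0.09, SE 0.180). Grin3a was at 293 ± 74.6 CPM in high fat diet mice and 300.5 ± 43.8 CPM in control mice (-0.06, SE 0.239), and Gria4 had a log2 fold change of -0.03 (SE 0.291). In astrocytes Gria1 was at 500.5 ± 67.7 CPM in high fat diet mice and 503 ± 184 CPM in control mice (log2 fold change -0.05, SE 0.236), and Gria2 at 1194 ± 332 and 1324 ± 218 CPM (log2 fold change -0.17, SE 0.194), n = 6 each.

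**Figure D5:**
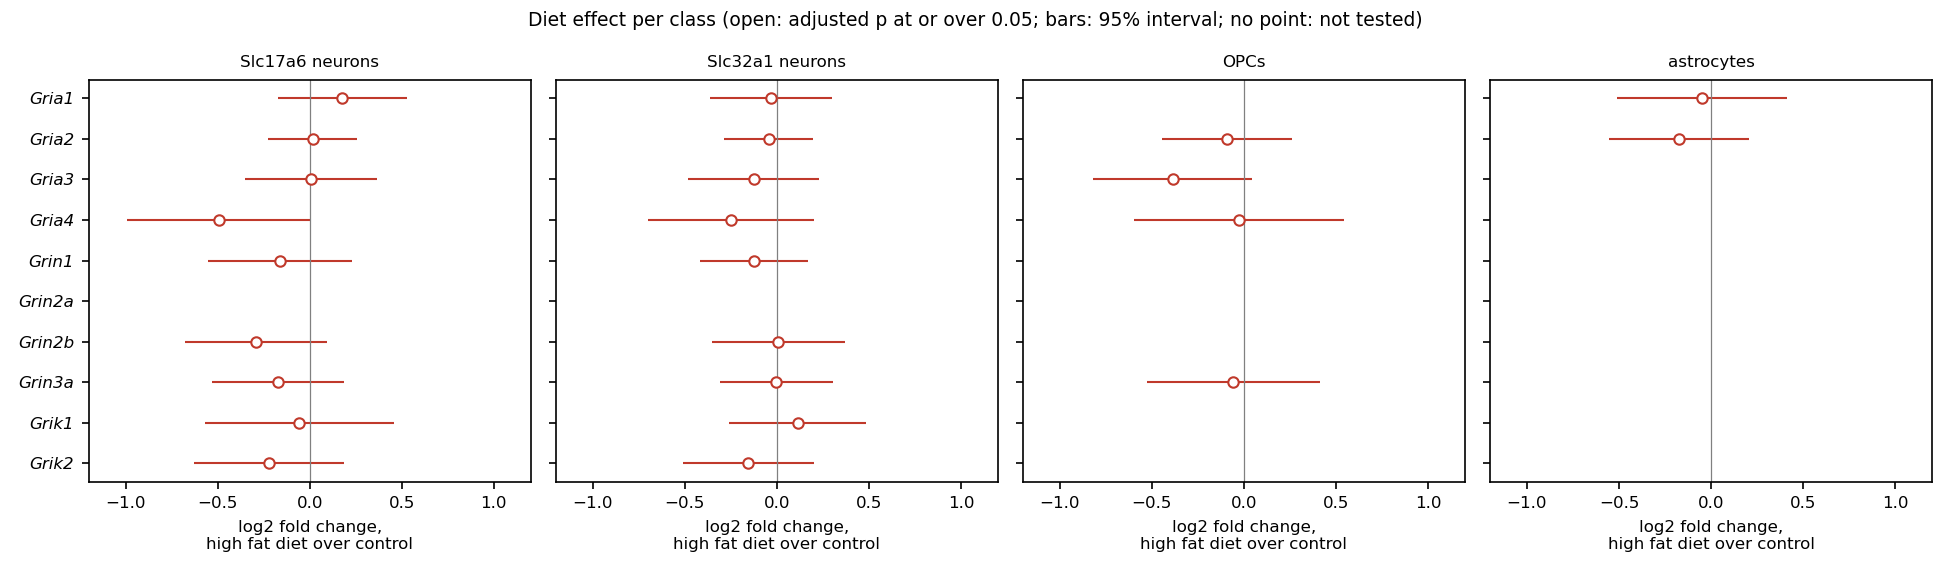
Log2 fold changes of high fat diet over control for each tested subunit in each class, with bars for the 95% interval from the SE; open points have an adjusted p at or over 0.05 and genes without a point were not tested. Every bar crosses 0.

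The diet effect did not pass a test of its difference between the neuron classes for any of 9 members, nor for any of 9246 genes (0%; 356 at an unadjusted p under 0.05, and 0 with DESeq2). Grin2b had a difference of -0.33 on the log2 scale between its diet effect in Slc17a6 neurons and that in Slc32a1 neurons (SE 0.135, edgeR adjusted p 0.9999), the only member with an unadjusted p under 0.05. In the 12 subclusters with enough mice, 81 pairs of a member and a subcluster were tested, and 0 passed, as did 0 of all 42893 pairs (0%). An unadjusted p under 0.05 was reached by 5 of the 81 pairs, or 6.17%, and by 2.77% of all pairs. These were Grik2 (-0.91) and Grin3a (-0.67) in the Trh subcluster, Grik1 (-0.91) in the Lhx6 subcluster, Gria1 (0.63) in a subcluster led by oligodendrocyte genes and Gria4 (-0.63) in the Gal subcluster, each with an edgeR adjusted p of 0.9999.

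The partner genes gave no diet call either. The lists hold 12 AMPA auxiliary, 14 scaffold, 3 editing, 7 metabotropic, 8 other ionotropic and 2 kainate auxiliary genes. In that order, 8, 11, 3, 4, 4 and 2 were tested in Slc17a6 neurons. In Slc32a1 neurons 10, 12, 3, 5, 5 and 2 were tested. In OPCs 1 AMPA auxiliary and 1 metabotropic gene were tested, and in astrocytes none was, so those classes give little or no diet result for partners. No tested gene passed, where at most 0.0212% of all genes did in any class. Among AMPA auxiliary genes the smallest p in Slc32a1 neurons was that of Shisa7 (log2 fold change -0.67, SE 0.302, adjusted p 0.9996 by edgeR), and among scaffold genes that of Dlg3 (log2 fold change -0.42, SE 0.211). In Slc17a6 neurons Cacng3 was at -0.35 (SE 0.232) and Neto2, a kainate receptor auxiliary subunit, also at -0.35 (SE 0.239), with Homer1, a postsynaptic scaffold, at -0.38 (SE 0.267) and the kainate subunit Grik4 at 0.49 (SE 0.363). Cacng4 in OPCs was at -0.02 (SE 0.166).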

How the data were processed

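Single-cell RNA was counted in 14 Drop-seq libraries, 1 per mouse. The deposited tables hold raw UMI counts per gene symbol and cell barcode, per the file headers. STAR 2.4.2a, Picard 2.2.4, bcl2fastq 2.18.0.12 and the mm10 genome are named in the submitters' processing notes; the UMI counter, its annotation and strand use are not given in the sources. Grin2a was listed in 11 of 14 tables and the other members in all 14. No column was left without a sample.

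Barcodes were kept with 500 UMIs and 300 genes or more and no more than 20% mitochondrial UMIs. Doublets were called with Scrublet in each library with at least 300 such barcodes, which marked 214 barcodes (1.39%). Cells were clustered with Leiden (resolution 1.0, 2000 variable genes without the receptor genes and their partners, 30 components, 15 neighbours; scanpy 1.11.5, leidenalg 0.10.2). A cluster was named when at least 3 markers of 1 type were past a fold of 1.5 and in at least 10% of its cells. Neurons were clustered again, and hypocretin and Pmch subclusters also needed at least 3 markers. Slc17a6 subclusters needed only Slc17a6 past those limits, with Slc32a1 below its level in other neurons. Slc32a1 subclusters needed at least 1 of Slc32a1, Gad1 and Gad2 past them, none of these below other neurons, and Slc17a6 below. The rest were other neurons. UMIs were summed per mouse and class where a mouse had at least 10 cells, and a family share was used where it rested on at least 10 UMIs. Sums were tested with edgeR 4.0.16 (quasi-likelihood, robust, TMM, filterByExpr, R 4.3.3) with Benjamini-Hochberg adjustment over all genes tested, with sequencing pool in the diet fits and the mouse as a block in the class contrasts. Floors correspond to 3 counts. The diet fit in Slc17a6 neurons, the Slc17a6 over Slc32a1 contrast and the interaction fit were run on simulated counts with known changes. All classes shared an expression profile in that simulation, so contrasts of glia with neurons were not tested in this way. DESeq2 1.42.0, other normalizations, no filter, other cell and doublet rules, pools alone and leaving out each mouse were the alternatives. The labels do not say that mice were independent in any other way than by library, so p-values measure the spread between these samples. Classes hold 6 high fat diet and 5 to 7 control mice, and counts limit scarce members: 33 UMIs of Gria1 in OPCs against 4361 in Slc32a1 neurons.

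The members and the gene lists were chosen with earlier results of these data known. All members are named; of other listed genes, those past the threshold or with the smallest p of their list are named. Some results on listed or similar genes are not reported here.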

Additional observations from a re-analysis of the deposited data

Results flagged for a closer look

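In 74 combinations of a subunit, class and diet group with 4 to 10 mice, 13 had a mouse set apart from the others by Dixon's test (17.6%; chance gives about 1 in 20), and most rest on a few UMIs. In Slc32a1 neurons, high fat diet replicate 1 was high for Gria1, at 439.8 CPM with the next mouse at 312 CPM, and low for Grin1, at 87.0 CPM with the nearest at 120.5 CPM. Also in Slc32a1 neurons, control replicate 1 was high for Gria4, at 233 CPM with the next at 153 CPM, and control replicate 7 for Grin2b, at 178 CPM with the next at 125.1 CPM. Both replicates numbered 1 belong to the 3 libraries rich in the Syt2 subcluster, which had a mean Gria4 of 265 CPM; its part in these values was not tested.

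Gria2 in astrocytes of high fat diet replicate 4 was low, at 545 CPM (22 UMIs) with the nearest mouse at 1205 CPM. In OPCs, Grin1 was high in high fat diet replicate 3, at 70.7 CPM (5 UMIs), and Grin2b in high fat diet replicate 1, at 62.1 CPM (3 UMIs), and in control replicate 2, at 16.7 CPM (2 UMIs). In astrocytes, Grin1 was at 20.9 CPM in high fat diet replicate 2 (2 UMIs), Grin3a at 92.7 CPM in high fat diet replicate 3 (2 UMIs) and Gria3 at 9.46 CPM in control replicate 5 (1 UMI). In Slc17a6 neurons, Grin2a was at 0.604 CPM in high fat diet replicate 2 and at 12.9 CPM in control replicate 6, each from 1 UMI.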

How the results depend on the processing

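No member passed a diet test under any alternative run. The mouse block is part of the class contrasts, since the classes come from the same mice; with no replicate block the Slc17a6 over Slc32a1 contrast called 138 genes in place of 415. No paired analysis was possible because replicate numbers of the diet groups follow only the order in which samples are listed. That contrast called 190 genes with DESeq2, 1053 with no filter and 795 with neuron classes alone, an alternative chosen after seeing the data. Members passing in it were 4 in place of 2 with no filter, with receptor genes kept in the clustering and with neuron classes alone. With no filter, OPCs over neurons called 7451 genes in place of 3034, astrocytes over neurons 8265 in place of 3158 and OPCs over astrocytes 3667 in place of 1859. Diet calls with no filter were 2 in Slc17a6 neurons in place of 0, 6 in Slc32a1 neurons in place of 2, 1 in OPCs in place of 0, and 5 for the difference between neuron classes in place of 0. Slc32a1 diet calls were 1 with doublets kept, 1 by the neurons' own UMIs, and 0 in pool 1 alone, in pool 2 alone and without high fat diet replicate 1 and control replicates 1 and 2, and astrocytes had 1 in pool 2 alone. Leaving out each mouse gave 0 to 2 Slc32a1 diet calls, 0 to 1 for the difference between neuron classes (1 without high fat diet replicate 1) and 0 to 1 in subclusters (1 without high fat diet replicate 5). In the class contrasts it gave 354 to 417 calls for Slc17a6 over Slc32a1, 2803 to 3176 for OPCs over neurons, 2904 to 3315 for astrocytes over neurons and 1661 to 1928 for OPCs over astrocytes, with 2 to 3, 7, 6 to 7 and 5 to 6 members passing. Signs turned for Gria2 (-0.0696) and Grm5 (-0.10) in OPCs over neurons and for Gria2 (-0.0047) and Pick1 (-0.11) in astrocytes over neurons, all with no filter. In OPCs over astrocytes they turned for Gria2 (0.22, total UMIs) and Camk2b (-0.55, doublets kept). In both contrasts over neurons, the other members whose values are given above both ways also had lower log2 fold changes with no filter, by similar amounts. The lower values were thus not limited to the genes whose signs turned. The cause was not tested. Total UMIs as the scale shifted the median gene by -0.409 in astrocytes over neurons and by 0.328 in OPCs over astrocytes, and calls were then higher in 33.2% and 73.6% of cases, against 43.5% and 54.8%. Few OPCs and astrocytes, at median depths of 1009 and 676 UMIs, limit what a diet test can show there.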

Other observations

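Some receptor genes outside the 10 members were set apart by class; they were chosen after their values were seen and passed no filter on low counts in the class contrasts. Grin2c, an NMDA receptor subunit, was at 166 ± 91.0 CPM in astrocytes (n = 12 mice; 106 UMIs), against 0.133 ± 0.341 CPM in Slc17a6 neurons and 0.686 ± 1.09 CPM in Slc32a1 neurons (n = 13 each), and no UMI was found in OPCs. That level was above the summed levels of Grin1, Grin2b and Grin3a in astrocytes, so Grin2c was the leading NMDA subunit there by UMIs. In the edgeR fit without a filter it was higher in astrocytes than in neurons by 7.60 on the log2 scale (SE 0.325, adjusted p 5.938e-119).

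Kainate subunits outside the members also differed. Grik3 was at 4.25 ± 4.43 CPM in Slc17a6 neurons and 28.7 ± 12.5 CPM in Slc32a1 neurons, a difference of -2.97 on the log2 scale (SE 0.212, adjusted p 1.123e-19 by edgeR) in the fit of the neuron classes alone. Grik4 was at 45.7 ± 20.8 CPM in OPCs, against 12.9 ± 7.35 CPM in Slc17a6 neurons and 13.3 ± 6.47 CPM in Slc32a1 neurons. Grik5, which needs a partner such as Grik2 to form a channel, was at 85.0 ± 56.9 CPM in OPCs and 77.2 ± 45.9 CPM in astrocytes, against 31.9 ± 13.0 and 31.8 ± 12.5 CPM in Slc17a6 and Slc32a1 neurons.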
